A study of Drosophila melanogaster with 4 samples.

Results

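H3K4me3, histone H3 trimethylated at lysine 4, was called in 1573 gene-body regions that lay far from any annotated transcription start in all 4 ovary libraries. They were found by merging peaks of the 4 lists that shared at least 1 base, which gave 26557 regions. Of these, 8883 held a peak from every library, and 6627 of the 8883 lay within 500 bp of a start and are called shared promoter regions here. The gene-body regions are the shared regions that overlapped an annotated gene other than a transposable element and whose whole length lay more than 1000 bp from every annotated start, and they made up 17.7% of the shared regions and 5.92% of all merged regions. Because the peak calls themselves chose them, the height, rank and width of their peaks are given as a description, with no test.

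The libraries came from whole ovaries of Drosophila melanogaster females. In lid KD females (MTD-Gal4 > shRNA lid, 2 libraries) MTD-Gal4 drove a hairpin RNA targeting lid, also named Kdm5, the gene of an H3K4me3 demethylase, and control females (MTD-Gal4 > +, 2 libraries) carried the same driver without a hairpin. MTD-Gal4 is active in germ cells, whereas ovaries also hold follicle cells in which lid was not targeted, so a lower mark per germ cell and a change in the number of germ cells cannot be told apart in these bulk samples. The sample labels give an age of 3 days and the extraction protocol names younger virgins, and each library pooled the ovaries of many females.

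Trimethylation of H3K4 is laid down by complexes of the Set1/COMPASS family, mostly as RNA polymerase II starts transcription, and it is typically densest on the nucleosomes just downstream of active promoters. Demethylases of the KDM5 family, of which Lid is the only fly member, remove it. Weaker signal inside genes can lie at unannotated starts, at intronic regulatory elements or on exons, and a peak list alone does not distinguish between these.

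The lists held between 12087 and 25302 peaks, the longest being control replicate 2. Read totals were not used, and the background of each list, 55.5 and 56.6 fragments per base in lid KD and 60.1 and 48.4 in controls, stood for depth. Values are given throughout for replicate 1 and then replicate 2 of a group. Over all 8864 shared regions with a solved coverage, the scatter between the lid KD libraries was 0.996 times their counting error, against 2.27 times for the control pair. Between the lid KD libraries there was thus no more difference than counting gives, so they count as 1 sample in any n, and a mean ± SD is given for the controls only. Among ovarian markers, 8 and 8 of 10 germ cell genes and 10 and 10 of 10 follicle cell genes had a promoter peak in lid KD, against 8 and 6 and against 10 and 10 in controls. Of 5 testis genes, 0 and 0 had one in lid KD and 0 and 1 in controls, and of 6 muscle sheath genes 1 had one in every library. Of 6 neuron genes, 2 and 2 had one in lid KD and 1 and 4 in controls. Of 4 blood cell genes, 1 and 1 had one in lid KD and 1 and 2 in controls.

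Windows of 4 gene-body regions of high rank are shown because each held the summits of all libraries within a coding exon. They are the first 4 in order of mean rank after leaving out a copy of ribosomal sequence and the regions whose summits spread beyond the window. Bases are from the plus strand of dm6, 5′ to 3′, in windows of 150 bases at chrX:1041131-1041280 for su(w[a]), chr3L:12794967-12795116 for CG42709, chr2L:13512999-13513148 for B4 and chr2L:6613037-6613186 for CG11050. Capitals mark the span of the 4 library summits, which was 18, 20, 60 and 44 bases in these regions.
su(w[a]): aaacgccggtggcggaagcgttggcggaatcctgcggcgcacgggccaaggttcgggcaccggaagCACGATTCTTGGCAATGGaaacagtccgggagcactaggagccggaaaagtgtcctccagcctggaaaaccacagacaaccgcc
CG42709: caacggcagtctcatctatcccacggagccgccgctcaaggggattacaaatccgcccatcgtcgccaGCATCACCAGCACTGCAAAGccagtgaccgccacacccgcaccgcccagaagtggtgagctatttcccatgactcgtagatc
B4: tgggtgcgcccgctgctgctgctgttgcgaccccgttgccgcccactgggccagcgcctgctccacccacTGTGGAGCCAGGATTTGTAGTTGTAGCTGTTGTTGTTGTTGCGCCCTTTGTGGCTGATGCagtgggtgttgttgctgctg
CG11050: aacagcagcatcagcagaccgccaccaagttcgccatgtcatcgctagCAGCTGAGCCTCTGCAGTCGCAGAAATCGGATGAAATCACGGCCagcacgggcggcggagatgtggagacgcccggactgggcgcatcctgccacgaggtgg

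Windows of 2 regions that were stronger in lid KD are shown next, chosen after their values were seen. They lay at chr3L:345500-345649 in a coding exon of mth and at chrX:18834166-18834315 in an intron of Pvf1, with summits spanning 29 and 10 bases in capitals.
mth: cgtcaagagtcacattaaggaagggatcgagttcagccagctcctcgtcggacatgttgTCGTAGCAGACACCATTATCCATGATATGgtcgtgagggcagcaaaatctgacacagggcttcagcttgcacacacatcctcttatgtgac
Pvf1: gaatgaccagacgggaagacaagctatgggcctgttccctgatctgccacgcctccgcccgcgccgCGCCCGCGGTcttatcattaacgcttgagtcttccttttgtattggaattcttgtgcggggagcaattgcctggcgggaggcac

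Many of the coding regions lay on runs of the codon-sized repeat CAG, and 2 windows rich in them, chosen after the data were seen, are shown for dikar (chr3L:6732677-6732826) and foxo (chr3R:14081622-14081771). Capitals mark runs of at least 2 CAG units, or CTG on the strand shown, which held 21 and 18 triplets.
dikar: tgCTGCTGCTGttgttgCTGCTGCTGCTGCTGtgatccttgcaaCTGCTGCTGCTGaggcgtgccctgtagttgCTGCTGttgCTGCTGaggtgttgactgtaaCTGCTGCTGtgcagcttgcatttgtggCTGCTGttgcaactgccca
foxo: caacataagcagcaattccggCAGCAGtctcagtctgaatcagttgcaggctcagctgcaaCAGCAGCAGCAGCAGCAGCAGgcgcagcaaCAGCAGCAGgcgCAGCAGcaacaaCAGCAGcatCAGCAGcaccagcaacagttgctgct

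The gene-body regions were mostly weak. Fold enrichment, the ratio of the pileup of fragments at a summit to the peak caller's local background, had a median of 1.87 and 1.91 in lid KD and of 1.69 and 2.63 in controls, against 5.39 and 5.30 in lid KD and 4.64 and 5.68 in controls at shared promoter regions. The summit itself was covered by a median of 109 and 114 fragments in lid KD and of 109 and 141 in controls, so the counting error of a single region was 9.58% and 9.37% in lid KD and 9.58% and 8.42% in controls. Relative to the background of the whole library, summit coverage had a median of 1.96 and 2.01 in lid KD and of 1.81 and 2.92 in controls. At shared promoter regions it was 20.2 and 19.4 in lid KD and 13.5 and 17.7 in controls. In every library the typical gene-body region thus stood little above background, and control replicate 2 was the highest of the 4.

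**Figure D1:**
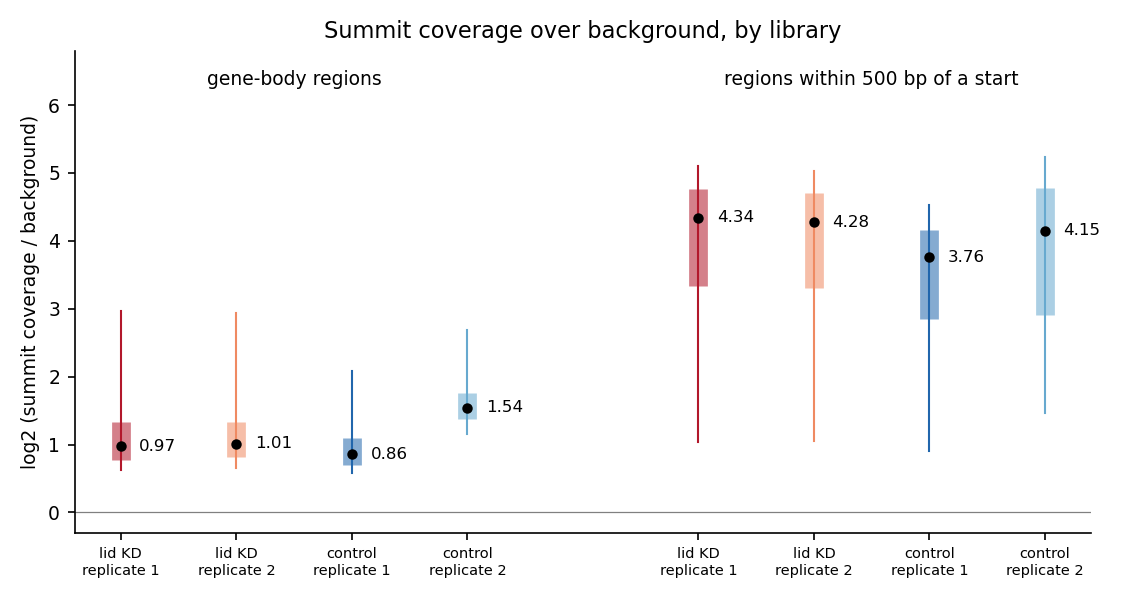
Summit coverage over the library's background (log2, vertical axis) in each library for the 1573 gene-body regions (left; 1 was not solved in control replicate 2) and for the shared promoter regions (right). Points are medians, thick bars span the middle 50% of regions and thin lines run between the 5th and the 95th percentile; the gene-body medians are 0.97 and 1.01 in lid KD and 0.86 and 1.54 in controls.

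Percentile ranks, in which 100 is the strongest peak of a list shortened to the 12087 strongest peaks and 0 means no peak in it, placed the gene-body regions low. Their median rank was 24.5 and 24.8 in lid KD and 27.5 and 33.5 in controls, whereas that of shared promoter regions was 70.9 and 71.1 in the lid KD libraries. A mean rank of at least 50 was reached by 117 gene-body regions (7.44%) and by 80.1% of shared promoter regions, and 5 gene-body regions reached 90. Called width had a median of 380 and 420 bp in lid KD and of 367 and 601 bp in controls. Merged over libraries, a region was between 183 and 4516 bp wide with a median of 668 bp, and 77 were at least 2000 bp wide. The 4 summits of a region lay within a median of 135 bp of each other, against 52 bp at shared promoter regions, and in 655 regions (41.6%) they lay within 100 bp.

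Most such regions were not called in every library. Any list held 11316 gene-body regions more than 1000 bp from a start, of which 13.9% were called in all 4, against 63.6% of the 10425 regions within 500 bp of a start. Control replicate 2 alone called 6851 of the 11316 (60.5%). The shared set made up 53.5% and 46.5% of the far gene-body regions called in lid KD and 58.1% and 14.8% of those called in controls.

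The limit of 1000 bp cut through a continuum. Just inside it lay an intronic region of Btk, which encodes a Tec-family tyrosine kinase, at 1001 bp, with a fold enrichment of 2.34 and 2.43 in lid KD and 1.63 and 3.32 in controls, and a coding region of toc at 1003 bp, with 1.63 and 1.42 in lid KD and 1.59 and 2.35 in controls. Just outside it lay regions of beta-Man and CG14024, both at 998 bp. Their fold enrichments were 1.75 and 2.20 in lid KD and 1.91 and 3.10 in controls for beta-Man, and 1.63 and 1.98 in lid KD and 1.52 and 2.49 in controls for CG14024.

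The summits lay mostly on coding sequence, which is the smaller part of gene bodies at this distance. The summits of all 4 libraries fell in coding exons in 1099 regions (69.9%) and in introns in 395 (25.1%), with 30 in untranslated exons, 11 in noncoding exons and 38 of mixed class. Of the gene bases more than 1000 bp from every start, 20.7% were coding and 70.5% were intronic. The coding segment holding the centre of a coding region had a median length of 907 bp. All coding segments lying wholly at that distance, each counted once, had a median of 204 bp. A segment found through a point within it tends to be long, so these medians are unlike measures and no excess in length is drawn from them. Introns gave narrower regions, with a median called width of 306 and 319 bp in lid KD and of 299 and 341 bp in controls, against 434 and 499 bp in lid KD and 405 and 775 bp in controls for coding regions.

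The base composition of the regions, which their choice had not used, was richer in GC than that of gene bodies at large. GC content of a window of 300 bases had a median of 57.3% in gene-body regions, of 59% in those on coding exons and of 51.7% in those in introns. All coding windows at the same distance from starts had a median of 52% (n = 43540) and all intronic windows of 40.7% (n = 157324), and shared promoter regions had 53.3%. Only 19.9% of the coding windows reached the median of the gene-body regions.

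**Figure D2:**
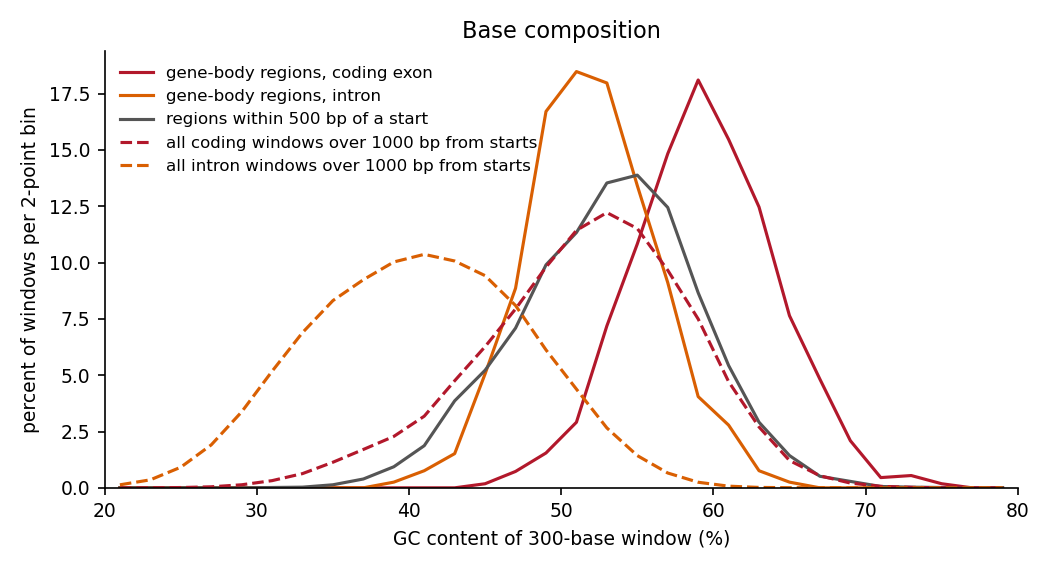
GC content of 300-base windows (horizontal axis, percent) against the percent of windows in each 2-point bin, for gene-body regions on coding exons and in introns (solid), shared promoter regions (grey) and all coding or intronic windows more than 1000 bp from starts (dashed). The solid curves peak to the right of their dashed counterparts, with medians of 59% against 52% for coding exons and of 51.7% against 40.7% for introns.

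Of 8 motifs searched on both strands in the same windows, after the data had been seen, CAGCAGCAG was in 29.4% of coding regions, 7.69% of all coding windows and 17.2% of the coding windows with a GC content at or above the regions' median. GCCGCCGCC, which overlaps no CAG run, was in 8.19% of coding regions and 2.67% of coding windows, but in 8.61% of the GC-rich coding windows. In intronic regions CACACACA was found in 18.2%, GAGAGAG, the core that the GAGA factor binds, in 15.4%, and CAACAACAA in 15.4%, against 7.22%, 3.88% and 3.01% of all intronic windows. Those windows had a median GC content of 40.7%, against 51.7% in intronic regions. Intronic windows of like GC content were not examined for any motif. TATAAA was in 2.18% of coding regions, 11.1% of coding windows and 1.27% of the GC-rich coding windows, and in 12.4% of intronic regions and 32.8% of intronic windows. TCAGT was in 31.4% of coding regions, 38.4% of coding windows and 29.9% of the GC-rich ones. The lower share of both in coding regions was thus not seen against windows of like GC content. TATCGATA was in 0 of 1573 regions, against 0.33% of shared promoter regions. The CAG-rich region shown for dikar was close to the medians of the set, with summit coverage over background of 1.69 and 2.12 in lid KD and 1.71 and 2.38 in controls. At foxo, a transcription factor of the insulin pathway, the summit had 108 and 97 fragments in lid KD and 114 and 111 in controls.

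The distance to the nearest start was between 1001 and 105106 bp with a median of 3071 bp, and 522 regions lay within 2000 bp. Along the host from its start to its end, 233 regions had their centre in the first 25% of the gene, then 290, 483 and 567 in each following 25%. The choice of regions left out all bases within 1000 bp of a start, which thins the front of genes. The share of eligible bases in each 25% is not given, so no trend along the gene is drawn from these counts. The nearest shared promoter region was a median of 4770 bp away, and 246 regions (15.6%) had one within 1000 bp. The X chromosome held 422 regions (26.8%), against 19.5% of the gene bases at this distance and 18.8% of shared promoter regions. Arms 3R, 2R, 3L and 2L held 338, 303, 270 and 225, and chromosome 4 held 15.

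The regions overlapped 1067 genes, of which 1042 were protein-coding, or 10.5% of the 9899 protein-coding genes with bases that far from a start. A shared promoter region was present at 75.0% of these hosts (782) and at 54.0% of the other 8857 genes (4786). Above 5 kb, hosting was more frequent in genes with a promoter region called in all libraries. Among genes of over 50 kb, 54.4% (81 of 149) with such a promoter hosted a region and 12.9% (21 of 163) without one did. Among genes of over 20 and up to 50 kb, the shares were 52.6% (190 of 361) and 14.7% (51 of 346). Among those of over 5 and up to 20 kb these shares were 29.0% and 14.8%, and among those of over 2 and up to 5 kb they were 3.04% and 2.65%.

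Of the hosts, 678 had 1 region and 315 had at least 2, and those 315 hosts held 895 regions. tara, which encodes a SERTA-domain regulator of chromatin and the cell cycle, had 17 regions (chr3R, 16 of them intronic), with a median fold enrichment of 2.04 and 2.02 in lid KD and 1.99 and 2.39 in controls. Mnt, a Max-binding repressor that opposes Myc, had 9, with 2.41 and 2.48 in lid KD and 1.85 and 2.80 in controls. lola, a locus of many transcription factor isoforms, also had 9, all on coding exons, with 1.77 and 1.89 in lid KD and 1.82 and 2.94 in controls. ftz-f1, a nuclear receptor, had 8, of which 7 were intronic, with 2.13 and 2.06 in lid KD and 1.66 and 2.68 in controls. Smr, a nuclear corepressor, had 7, with 2.35 and 2.36 in lid KD and 1.96 and 2.44 in controls. Tied with Smr at 7 regions were pyd, tou and upSET, which are not described. All 5 hosts described had a promoter region in all libraries.

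Genes with known ovarian roles were among the hosts. Of 32 germ line and follicle cell genes with bases far from a start, 17 hosted a region, among them nos and bru1, which control translation in the oocyte, piwi and vas of the germ line RNA pathways, the morphogen regulator mirr, and the receptors Egfr and N. Of 20 neuronal and adhesion genes 7 did, and of 16 chromatin and transcription regulators 7 did, including trx, Psc, ph-p, Trl and lid itself. These lists hold long genes, with median lengths of 13327, 49511 and 10992.5 bp, against 3273 bp for all protein-coding genes with such bases, so the counts are not set against those of average genes. The region within lid (chr2L:5991740-5992415, a coding exon 4370 bp from the nearest start) had 156 and 146 fragments at its summit in lid KD and 118 and 172 in controls, and the groups overlapped.

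The regions of highest mean rank were far above the rest. A pseudogene of 28S ribosomal RNA, 28SrRNA-Psi:CR45859 (chrX:23216901-23217792), had coverage of 23.5 and 23.6 times background in lid KD and of 39.0 and 11.6 times in controls. Its control libraries differed more from each other than from lid KD, and as a copy of a repeated gene its count depends on the filter for unique alignment. At su(w[a]), an RNA-binding regulator of splicing, a coding exon 4593 bp from any start (chrX:1040994-1041631) had 1655 and 1445 fragments in lid KD and 1074 and 1542 in controls. Expressed over background this was 29.8 and 25.5 in lid KD and 17.9 and 31.9 in controls, so the groups overlapped.

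The region over CG42709 and Atg1, the kinase that starts autophagy (chr3L:12794086-12795573), had 877 and 927 fragments in lid KD and 666 and 841 in controls, and was 15.8 and 16.4 times background in lid KD and 11.1 and 17.4 times in controls. B4 (chr2L:13512798-13513627, coding exon, 14214 bp from a start) had 17.3 and 15.4 times background in lid KD and 10.1 and 17.2 times in controls. In both genes control replicate 1 was low and control replicate 2 was close to lid KD. Snap25, a SNARE protein of synaptic vesicle fusion, held an intronic region (chr3L:24231500-24232532) 58332 bp from the nearest start, with 15.0 and 15.1 times background in lid KD and 11.2 and 10.7 in controls, where the groups did not overlap. The nearest shared promoter region was 876759 bp from it. CG42748 and CG11050 reached 9.15 and 8.60 and then 9.65 and 9.71 times background in lid KD, and 8.23 and 13.5 and then 8.38 and 13.7 times in controls.

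The remaining 3 of the 10 highest were higher in both lid KD libraries than in both controls on this scale. rt, a protein O-mannosyltransferase (chr3L:11585948-11586508, 1262 bp from a start), had 10.8 and 10.8 times background in lid KD and 4.46 and 7.75 in controls. scyl, an inhibitor of TOR-dependent growth (chr3L:11253336-11254703), had 7.85 and 7.93 times in lid KD and 4.81 and 7.32 in controls. tay (chrX:15884497-15885934) had 1096 and 1148 fragments in lid KD and 510 and 606 in controls, or 19.7 and 20.3 times background in lid KD and 8.48 and 12.5 in controls. In none of the 3 did the groups overlap, and control replicate 2 was nearer to lid KD each time.

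The widest regions were low and flat. Gug, which encodes the Atrophin corepressor, had 4516 bp merged (chr3L:8463529-8468044), called over 4218 and 3796 bp in lid KD and 3055 and 4511 bp in controls, with a coverage of 1.94 and 1.96 times background in lid KD and 1.90 and 3.25 in controls. peb, a zinc-finger regulator of follicle cells and other epithelia, was called over 2740 and 2624 bp in lid KD and 1654 and 3120 bp in controls. pico and CG14073 each had 3396 bp merged, and raskol, a Ras GTPase-activating protein, was called over 849 and 1862 bp in lid KD and 633 and 3323 bp in controls. In all 5 of the widest, control replicate 1 was the narrowest library and control replicate 2 the widest.

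Of the 5 regions farthest from a start, 3 overlapped annotated transposable elements, where unique alignment limits the count. Both regions of flam, the piRNA cluster transcript of follicle cells, were 105106 and 81870 bp away and had coverage of 2.83 and 2.65 and of 4.00 and 3.64 times background in lid KD, against 2.88 and 4.01 and against 3.68 and 4.90 in controls. The region of AGO3, a piRNA-binding Argonaute, had 1.78 and 1.78 in lid KD and 1.68 and 2.87 in controls. The second region of Snap25, 95008 bp away, had 2.02 and 2.03 in lid KD and 1.83 and 3.08 in controls. In total, 22 gene-body regions overlapped a transposable element.

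Whether depletion of Lid altered the mark at these places was asked by comparing the groups region by region and through medians over regions. The median coverage over background, on the log2 scale, was 0.97 and 1.01 in lid KD and 0.86 and 1.54 in controls (SD 0.48, n = 2), a difference of -0.21. That of fold enrichment was 1.87 and 1.91 in lid KD and 2.16 ± 0.664 in controls (SD, n = 2). The median called width averaged 400 bp in lid KD and 484 ± 165 bp in controls (SD, n = 2). In these 3 measures the lid KD libraries lay between the controls. The median rank was lower by 5.87 points in lid KD, where both libraries lay below both controls. With ranks in the lists as deposited it was lower by 17.1 points, but the lid KD medians of 28.8 and 32.7 then lay between those of the controls, 27.5 and 68.2. Control replicate 2 decided the sign of the first 3 differences. Without it, 1732 gene-body regions were shared. Over these, lid KD minus control was 0.13 for log2 coverage, 0.21 for fold enrichment and 22 bp for width, and -2.38 points for rank.

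The direction also depended on what coverage was measured against. Over all shared regions the log2 coverage of the lid KD libraries was higher than that of control replicate 1 by a median of 0.50 and 0.45 and differed from that of control replicate 2 by -0.03 and -0.09, so enrichment as a whole was lower in control replicate 1. At gene-body regions the same differences were 0.14 and 0.17 and then -0.54 and -0.52. When each library was divided by its own median over all shared regions, a scaling chosen after the data were seen, the gene-body median was lower in lid KD by 0.62 on the log2 scale, with -2.85 and -2.77 in lid KD and -2.44 and -1.93 in controls, and by 0.37 without control replicate 2. On that scale both lid KD libraries were below both controls at 1279 gene-body regions (81.4%), against 42.5% of all shared regions, and above both at 72 (4.58%), against 7.4%. This scaling subtracts 1 constant from every log2 value of a library, 3.82 and 3.78 in lid KD and 3.29 and 3.48 in controls, so it shifts all regions of a library alike, and regions near background in every library come out lower where peaks as a whole were stronger. The counts depend on the scale, and how far the scaling accounts for them was not tested. No direction is drawn from them.

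Beyond a shift common to the set, little could be seen region by region. After scaling by the median ratio, the scatter of summit counts over the gene-body regions was 0.808 times the counting error between the lid KD libraries and 1.00 times between the controls. Between a lid KD and a control library it was 1.16 and 1.14 times with control replicate 1 and 1.42 and 1.30 times with control replicate 2. At shared promoter regions, where counts were higher, the scatter was 0.990 times between the lid KD libraries and 2.94 times between the controls. Between lid KD and control it was 2.92 and 2.85 times with control replicate 1 and 3.94 and 3.99 times with control replicate 2. Against control replicate 1 it thus did not exceed that of the control pair. At this depth, differences near the counting error of a single region could not be detected.

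**Figure D3:**
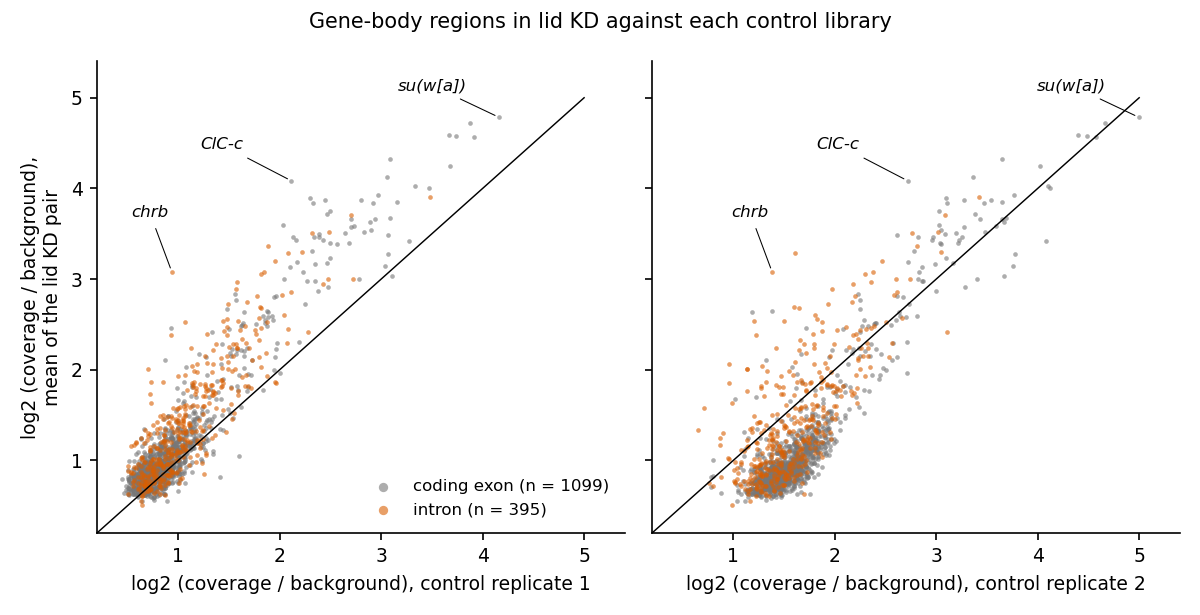
Log2 summit coverage over background of each gene-body region in control replicate 1 (left) or control replicate 2 (right) on the horizontal axis against the mean of the lid KD pair on the vertical axis, for regions on coding exons (grey, n = 1099) and in introns (orange, n = 395). Points on the line are equal; most points lie just above it against control replicate 1 and below it against control replicate 2, and ClC-c and chrb stand above the line in both.

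A region was counted as moved in rank where both lid KD ranks lay above or below both control ranks by at least 10 points. A rank of 0, with no peak in the shortened list, was given to 279 gene-body regions in control replicate 2. In lid KD 82 and 138 had that rank, and in control replicate 1 0 did, so rises in rank can rest on a missing peak of control replicate 2. With no margin, 276 gene-body regions (17.5%) lay above, against 20.7% of all shared regions, and 508 (32.3%) below, against 33.4%. By the rule 102 gene-body regions (6.48%) were higher in lid KD, against 4.44% of all shared regions, and 151 (9.60%) were lower, against 3.67%. The same regions gave 151 higher (9.60%, against 5.79% of all shared regions) and 262 lower (16.7%, against 6.34%) without lid KD replicate 1, and 124 (7.88%, against 5.29%) and 264 (16.8%, against 6.12%) without lid KD replicate 2. They gave 261 (16.6%, against 14.8%) and 532 (33.8%, against 13.3%) without control replicate 1, and 239 (15.2%, against 10%) and 285 (18.1%, against 9.66%) without control replicate 2. With the lid KD pair averaged, 124 were higher and 244 lower, and the share of all shared regions is not given for that setting. With ranks taken from the lists as deposited the counts were 20 higher and 99 lower, against 0.923% and 3.04% of all shared regions. The rises and the falls differed in strength. The 102 rises had a median summit of 284 and 275 fragments in lid KD and 168.5 and 158 in controls, and the 151 falls had 93 and 98 in lid KD and 107 and 137 in controls, close to the weakest peaks called.

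In coverage over background, both lid KD libraries were above both controls at 181 of 1572 regions (11.5%), against 36% of all shared regions, and below both at 181 (11.5%), against 4.77%. At 854 regions (54.3%) they lay above control replicate 1 and below control replicate 2, against 41.3%. A difference of at least 1.5 times was found at 35 regions (2.23%) in the direction of lid KD, against 2.43% of all shared regions, and at 0 in the other direction, against 0.079%. Of the 35, 29 were also higher in rank. Without control replicate 2 the counts at 1.5 times were 166 higher (10.6%, against 26.6%) and 1 lower (0.0636%, against 0.508%), and without control replicate 1 they were 44 (2.80%, against 6.72%) and 466 (29.6%, against 8.45%). Divided by the median of all shared regions they were 4 (0.254%) and 63 (4.01%), against 0.293% and 1.92%. With all libraries kept, the share of rises at 1.5 times was on both scales close to that of all shared regions.

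By rank, a larger share of the intronic regions near starts than of the other gene-body regions was counted higher in lid KD. Of 159 intronic regions within 2000 bp of a start, 39 (24.5%) were higher in rank in lid KD and 3 (1.89%) were lower. Among all shared regions the shares were 4.44% and 3.67%. Of 771 coding regions beyond 2000 bp, 15 (1.95%) were higher and 95 (12.3%) were lower. Intronic regions beyond 2000 bp had 15 higher and 22 lower of 236, and coding regions within 2000 bp had 26 and 25 of 328. This split was made after the data were seen. The intronic regions near starts kept more rises than falls with each library left out. Without lid KD replicate 2 the counts were 44 (27.7%) and 5 (3.14%), against 5.29% and 6.12% of all shared regions. Without lid KD replicate 1 they were 45 (28.3%) and 10 (6.29%), against 5.79% and 6.34%. Without control replicate 2 they were 55 (34.6%) and 8 (5.03%), against 10% and 9.66%. Without control replicate 1 they were 70 (44.0%) and 22 (13.8%), against 14.8% and 13.3%. With ranks as deposited they were 9 and 1 (against 0.923% and 3.04%), by p-value 17 and 4 (1.91% and 3.99%) and by coverage 9 and 2 (0.743% and 2.51%). At some of the 39 rises, Prm and ush among them, control replicate 2 had a rank of 0 and the groups overlapped in coverage. In coverage, 68 of the 159 (42.8%) were above both controls and 8 (5.03%) below, against 36% and 4.77% of all shared regions. At least 1.5 times higher were 19 (11.9%), of the 35 in all, against 2.43%. There were 48 (30.2%) without control replicate 2, against 26.6%, and 25 (15.7%) without control replicate 1, against 6.72%. Divided by the median of all shared regions, 33 of the 159 (20.8%) were above both controls and 74 (46.5%) below. Of all shared regions, 7.4% were above and 42.5% below on that scale. At 1.5 times, 2 (1.26%) were higher and 3 (1.89%) lower, against 0.293% and 1.92%.

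**Figure D4:**
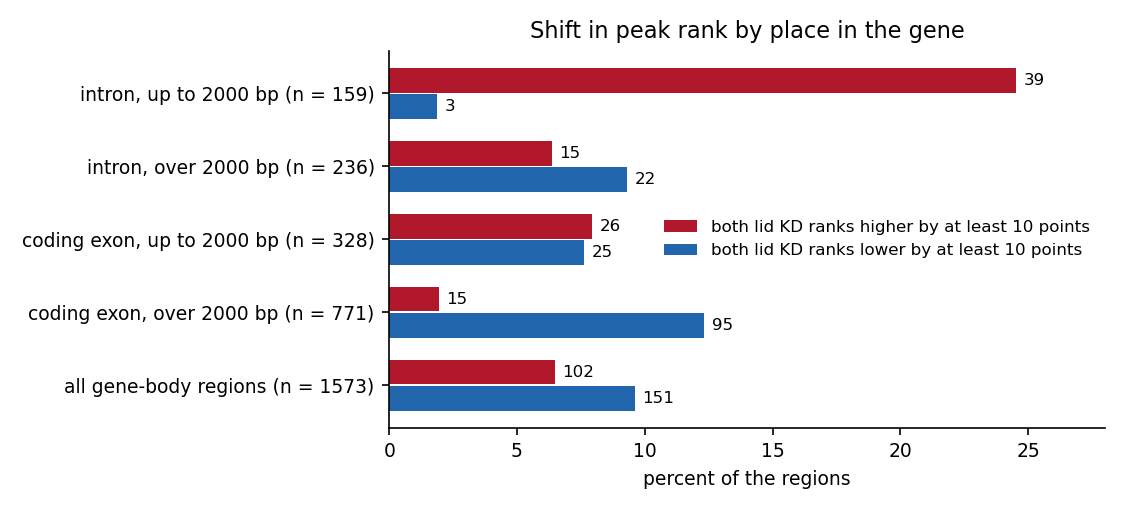
Percent of gene-body regions (horizontal axis) whose rank was higher (red) or lower (blue) in both lid KD libraries than in both controls by at least 10 points, by the place of the summit and the distance to the nearest start (vertical axis). Numbers beside the bars are regions; 39 of 159 intronic regions within 2000 bp were higher and 95 of 771 coding regions beyond 2000 bp were lower.

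A contrast taken within each library does not depend on how libraries are scaled to each other. Both contrasts below were chosen after the rises in introns near starts had been seen in the same libraries, and they are no independent support for them. The median log2 coverage of intronic regions exceeded that of coding regions by 0.33 and 0.35 in lid KD and by 0.18 and -0.01 in controls, a difference of 0.26 between the groups. Regions within 2000 bp of a start exceeded those beyond by 0.32 and 0.28 in lid KD and by 0.19 and 0.07 in controls, a difference of 0.17. In both contrasts the lid KD libraries lay above both controls, and no test was made. Over the leave-one-out settings the differences were between 0.16 and 0.35 for introns and between 0.11 and 0.23 for distance.

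GC content moved with these contrasts. Intronic regions made up 303 of the regions in the lowest of 3 equal classes of GC content and 15 in the highest, where coding regions numbered 189 and 493. Within the lowest class the group difference between introns and coding exons was 0.26, in the middle class 0.03 and in the highest 0.06. For distance the values were 0.39, 0.07 and 0.02, so both contrasts were largely found among the regions of lower GC content. Over the 3 classes, from low to high GC content, control replicate 2 exceeded control replicate 1 by 0.54, 0.70 and 0.74 on the log2 scale, and lid KD replicate 1 exceeded control replicate 1 by 0.25, 0.13 and 0.08. Lid KD replicate 1 minus control replicate 2 was -0.28, -0.56 and -0.66 in the same order. The part of base composition in the group differences was not tested.

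Proximity to a strong promoter region moved with the rises as well. Of 246 gene-body regions within 1000 bp of a shared promoter region, 52 (21.1%) were higher in rank, against 4.44% of all shared regions, and 8 (3.25%) were lower, against 3.67%, and 21 of the 35 regions with at least 1.5 times higher coverage were among them. Their median coverage was 3.38 and 3.49 times background in lid KD and 2.47 and 3.52 in controls. Divided by the median of all shared regions, 46 of the 246 (18.7%) were above both controls and 109 (44.3%) below. Of all shared regions, 7.4% were above and 42.5% below. At 1.5 times, 3 (1.22%) were higher and 8 (3.25%) lower, against 0.293% and 1.92%. Of the other 1327, 50 were higher in rank and 143 were lower, with medians of 1.91 and 1.96 times in lid KD and 1.78 and 2.88 in controls. Whether these peaks are a flank of the promoter signal was not tested.

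Among the 117 gene-body regions with a mean rank of at least 50, 21 (17.9%) were higher in lid KD and 1 (0.855%) was lower, against 4.44% and 3.67% of all shared regions. Without control replicate 2 the counts were 56 (47.9%) and 2 (1.71%), against 10% and 9.66%. The mean rank includes lid KD, so a region could reach 50 through lid KD alone, as chrb did with ranks of 76.0 and 75.7 in lid KD and 23.3 and 30.8 in controls, and these counts are a description. Of the 21, 14 lay in introns and 17 within 2000 bp of a start. At the same ranks, between 50 and 75, 18.3% of 104 gene-body regions and 3.28% of 2560 other shared regions were higher. Between 25 and 50 these shares were 5.48% and 6.81%, and below 25 they were 5.64% and 12.5%. Ranked by coverage, 2 of the 117 (1.71%) were higher and 0 lower, against 0.743% and 2.51% of all shared regions. By p-value the counts were also 2 and 0, against 1.91% and 3.99%.

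The largest rises in rank were at named genes. ClC-c, a chloride channel or exchanger of the ClC family, had a coding region 1008 bp from a start (chr3L:16091464-16092026) with 920 and 984 fragments in lid KD and 260 and 318 in controls. Its coverage was 16.6 and 17.4 times background in lid KD and 4.33 and 6.58 in controls, and it lay 466 bp from a shared promoter region. chrb, a relative of scyl that likewise restrains TOR signalling, had an intronic region 1909 bp from a start (chr3L:11489459-11489921) with 472 and 476 fragments in lid KD and 115 and 126 in controls. Over background this was 8.50 and 8.41 in lid KD and 1.91 and 2.61 in controls. At both genes the groups were far apart compared with the counting error. That error does not cover differences between samples, and both genes were picked for their rise.

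The region shared by mth, the G-protein-coupled receptor Methuselah, and Ptpmeg, a tyrosine phosphatase (chr3L:345405-345768), had 380 and 321 fragments in lid KD and 188 and 110 in controls. Pvf1, the growth factor of the PDGF and VEGF family that the oocyte secretes to guide border cells, had an intronic region 1267 bp from a start (chrX:18833949-18834395) with 434 and 442 fragments in lid KD and 180 and 247 in controls. The region over bsd and Hen1, the methyltransferase that caps the ends of piRNAs and small interfering RNAs with a methyl group (chr2R:12146739-12147132), had 367 and 396 in lid KD and 178 and 229 in controls. In these 3 the lid KD libraries were both above both controls, with 6.84 and 5.67, 7.81 and 7.81, and 6.61 and 6.99 times background in lid KD, against 3.13 and 2.27, 2.99 and 5.11, and 2.96 and 4.74 in controls. Divided by the median of all shared regions, only 4 gene-body regions remained at least 1.5 times higher.

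Other intronic rises are named here after their values were seen, as examples of genes with known roles. E2f1, the activator of S-phase genes, had 319 and 331 fragments in lid KD and 181 and 137 in controls at a region 1162 bp from a start. Trf2, a TBP-related factor that serves promoters without a TATA box, had 483 and 549 in lid KD and 233 and 267 in controls. Diap1, the inhibitor of caspases, had 2 rising intronic regions, with 238 and 224 and with 333 and 347 fragments in lid KD, against 132 and 118 and against 247 and 169 in controls. bru1, the repressor of oskar translation, had 350 and 367 in lid KD and 212 and 151 in controls at 2465 bp. These are single regions picked from 102, and none was tested singly.

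The largest falls in rank were weak regions, of which 4 are given. CG45078, which overlaps fau and CG45076 (chr3R:10773661-10774039), had 84 and 90 fragments in lid KD and 110 and 163 in controls. Sox15, a SOX-family transcription factor (chr2R:14207406-14207968, intron), had 86 and 88 in lid KD and 106 and 157 in controls. LKRSDH, an enzyme of lysine breakdown, had 102 and 95 in lid KD and 160 and 161 in controls, and was called over 256 and 313 bp in lid KD and 1495 and 1505 bp in controls. nkd, an antagonist of Wingless signalling, had 82 and 87 in lid KD and 102 and 129 in controls. Apart from LKRSDH, control replicate 1 was close to lid KD in each, and control replicate 2 was the highest library in all 4.

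**Figure D5:**
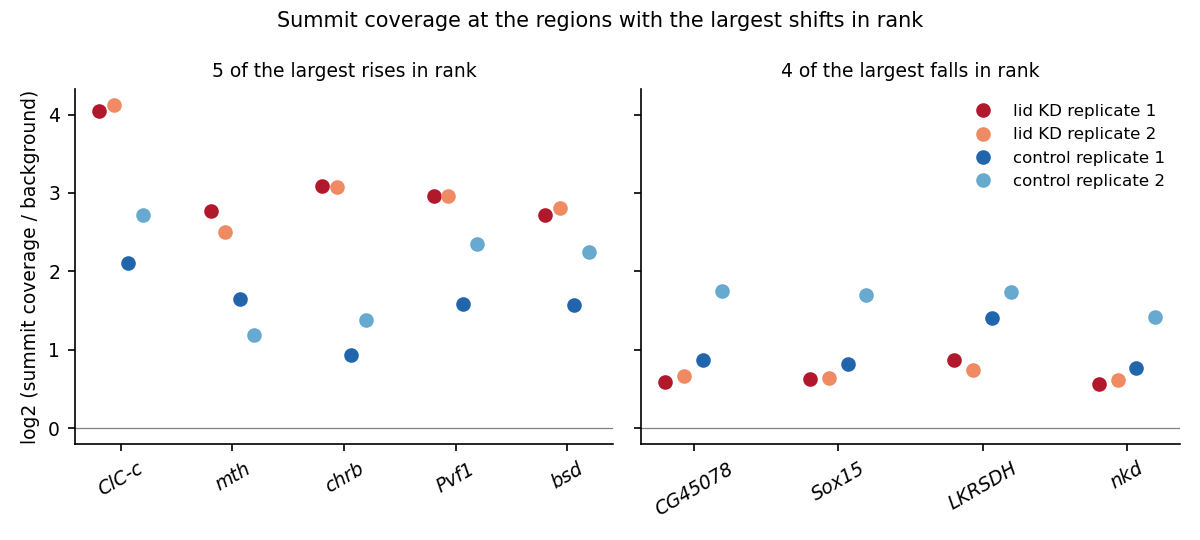
Log2 summit coverage over background (vertical axis) in each library at the 5 gene-body regions with the largest rises (left) and at 4 of the largest falls in rank (right). At ClC-c (16.6 and 17.4 times background in lid KD before taking the log) and chrb the lid KD points lie well above both controls, while at the falls control replicate 2 is the highest point.

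Called width moved less evenly. Both lid KD widths were above both control widths at 132 gene-body regions (8.39%), against 18.3% of all shared regions, and below both at 357 (22.7%), against 15.3%. With a ratio of at least 1.5 the counts were 9 wider (against 0.507%) and 46 narrower (against 1.19%). Called width depends on the height of a region and on the length of the list, and it was taken from the full lists. When the same libraries were left out, the counts rested on control replicate 2, without which 808 were wider and 532 narrower among the 1732 gene-body regions then shared.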

How the data were processed

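H3K4me3 ChIP-seq of ovaries gave 4 deposited peak lists, 2 for lid KD and 2 for controls, grouped by the genotype in the labels. Per the study's methods and the submitters' processing notes, the authors aligned paired-end reads with Bowtie2 (2.3.3), removed duplicates with Picard (2.17.10) and called peaks per library with MACS2 (2.1.1) at a q-value of 0.1. Whether an input library entered the calls is not given in the sources used here. The deposited lists give each peak's fold enrichment, a ratio of pileup to local background at the summit, and the −log10 of its p-value and of its q-value. The score column was not used.

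Fold enrichment was taken as (pileup + 1)/(background + 1) and the −log10 p as a Poisson upper tail, and both were solved for the pileup and the background at each summit. This failed for 7 to 10 peaks per library and for 1 gene-body region (hebe, control replicate 2), which is left out of coverage measures. The counts are fragments over a summit, and counting errors cover sampling only. A region took the strongest peak of a library within it. Starts and genes came from Ensembl release 115 (BDGP6.54, the dm6 assembly). The dm6 sequence came from RefSeq.

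Groups were compared by their values and by counts of regions whose groups did not overlap, set beside all shared regions. Exact permutation tests over libraries had been planned for the medians, but their p-values are not given because the peaks themselves chose the regions. The study's methods call the libraries of a group biological replicates, each from its own pool of ovaries. Named were the 10 regions of highest mean rank, the 5 widest, the 5 farthest and 2 on each side of the limit. Also named were the 5 largest rises and falls in rank and 5 genes with most regions, the last from a tie. Of the named items, 1 region and 1 sequence are not reported here. Regions and lists were chosen with earlier results of these data known. Alternatives were the distance limit, a q-value of at most 0.01, 50% overlap, coding starts, no transposable elements, other rankings and margins, each library left out and a replicate block. Python 3.11.15, numpy 2.4.6, pandas 2.3.3 and scipy 1.17.1 were used, and the scripts were tested on simulated data.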

Additional observations from a re-analysis of the deposited data

How the results depend on the processing

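With each library left out, lid KD minus control was -0.68 to 0.21 for the median fold enrichment, -0.53 to 0.13 for log2 coverage and -187 to 22 bp for width, and in each the positive value came without control replicate 2 (0.21, 0.13 and 22). It was -6.51 to -2.38 points for rank, and -17.1 with ranks in the lists as deposited, where the lid KD libraries no longer lay below both controls. The number of gene-body regions was 1702 to 2279 with 1 list fewer. Counts were 129 to 491 higher in rank, 291 to 660 lower, 175 to 808 wider and 532 to 1707 narrower, the largest mostly without control replicate 1 and the 808 without control replicate 2. These settings have 1 value fewer to clear and also other regions in the set, and no share over all shared regions is given for them. On the same 1573 regions without control replicate 1, 261 were higher in rank (16.6%, against 14.8% of all shared regions) and 532 lower (33.8%, against 13.3%).

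A limit of 500 bp, with 2023 regions, gave 181 higher and 181 lower in rank, and 221 wider and 433 narrower. A limit of 2000 bp, with 1051 regions, gave 32 (3.04%) higher and 121 (11.5%) lower, and 46 wider and 268 narrower. Of all shared regions, 4.44% were higher, 3.67% lower, 18.3% wider and 15.3% narrower. Rankings of the lists as deposited gave 20 higher (1.27%, against 0.923% of all shared regions) and 99 lower (6.29%, against 3.04%). Ranking by p-value gave 44 (2.80%, against 1.91%) and 178 (11.3%, against 3.99%). Ranking by coverage gave 25 (1.59%, against 0.743%) and 121 (7.69%, against 2.51%). With no margin 276 were higher and 508 lower, and a width ratio of 1.5 gave 9 wider and 46 narrower. With the lid KD pair averaged, 244 were lower and 537 narrower, and the share of all shared regions is not given for that setting. The cause of these shifts was not tested. Scaling by all shared regions and subtracting background, both chosen after the data were seen, changed the difference in log2 coverage to -0.62 and -0.34.

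Replicate numbers were checked for pairing. Deviations of same-numbered libraries correlated with r = 0.05 in coverage and 0.06 in rank over gene-body regions. The scatter of summit counts over these regions was 0.808 times the counting error between the lid KD libraries and 1.00 times between the controls. Differences of that size are mostly counting noise, so the correlation cannot tell whether same-numbered libraries were paired. With a replicate block 118 regions were higher in rank, 235 lower, 196 wider and 598 narrower, and the differences of medians were the same. Shares of all shared regions are not given for the block.

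Peak lists hold only what passed the caller, so a region lost in 1 library is not measured there. The depth of a typical gene-body summit leaves a counting error of 8.42% to 9.58%, and 2 libraries a group allow no p under 0.333 by exact permutation.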
